A study of Rattus norvegicus with 8 samples.

Results

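Fbxo32, Trim63, Foxo1, Foxo3, Gadd45a, Cdkn1a and Cebpd, which are genes of muscle atrophy and of FoxO signalling, were examined in the tibialis anterior, a fast muscle of the lower hindlimb, of hyperthyroid and untreated rats. They are 7 of the 14217 genes that the array platform's annotation names by a single gene symbol, and every probe set with one of these symbols was taken, which gave 14 of 31042 probe sets. A probe set is a group of short array probes to 1 transcript. The animals were Sprague-Dawley rats of 200 ± 40 g at the start, with 3 males and 1 female in each group, and 1 Affymetrix array was hybridised per rat. The 4 hyperthyroid rats (replicates 1, 3, 5 and 2) were injected intraperitoneally with triiodothyronine (T3), the active thyroid hormone, over 6 weeks, with a dose of 25 µg per 100 g given every 2 days, and were killed 24 h after the last dose. The 4 controls (replicates 7, 8, 9 and 11) were untreated, and the labels name no vehicle injection for them. The comparison asks whether T3 excess changed the mRNA of these genes in a limb muscle.

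In muscle that loses mass, proteins are marked with ubiquitin by E3 ligases and degraded by the proteasome. The ligase genes Fbxo32 (atrogin-1) and Trim63 (MuRF1) are best known for their induction in wasting muscle, where FoxO transcription factors bind their promoters. Insulin and IGF-1 signalling through the kinase Akt phosphorylates FoxO proteins and keeps them out of the nucleus, and glucocorticoids act on the same genes through their own receptor and through C/EBP factors. Gadd45a and Cdkn1a (p21) are stress and growth-arrest genes that are also induced in denervated or unused muscle, and Cebpd encodes C/EBP delta.

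None of the 7 genes differed between hyperthyroid and control muscle beyond the spread between rats. Across 8 probe sets with a level above a filter on low values, at least 1 for each gene, differences ran from a log2 fold change of -1.02 ± 0.73 for Foxo1 to 0.72 ± 0.70 for 1 probe set of Cebpd (limma standard error, 4 arrays per group). Single readings below the level of that filter weighed on both ends of this range. The levels instead followed single rats. One hyperthyroid rat, replicate 1, had the highest intensity of all 8 arrays on 7 of the 8 probe sets, among them Trim63 at 2587 against 751 to 1426 on the other 7 arrays. Without this array the Trim63 difference went from 0.40 to 0.06, and that of Gadd45a from 0.04 to -0.22.

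Promoters are shown for 4 of the genes, the ones held by the sequence set used. They are RefSeq sequences of assembly GRCr8, each from 250 bases before to 50 bases after the start of the gene, written 5′ to 3′ on the strand of the gene, and Fbxo32, Foxo3 and Cebpd were not printed. Capitals mark matches to the FoxO string GTAAACA, the glucocorticoid receptor half-site AGAACA, the thyroid hormone receptor half-site AGGTCA or the p53 half-site, each searched on both strands. The windows are chr5:151816986-151817285 (+) for Trim63, chr4:97486750-97487049 (-) for Gadd45a, chr20:7150682-7150981 (+) for Cdkn1a and chr2:138462724-138463023 (+) for Foxo1.
Trim63: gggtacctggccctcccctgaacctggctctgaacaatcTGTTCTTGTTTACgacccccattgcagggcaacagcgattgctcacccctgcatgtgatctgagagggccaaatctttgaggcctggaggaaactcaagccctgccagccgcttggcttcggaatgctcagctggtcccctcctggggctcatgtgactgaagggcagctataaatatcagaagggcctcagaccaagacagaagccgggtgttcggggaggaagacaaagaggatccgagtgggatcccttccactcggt
Gadd45a: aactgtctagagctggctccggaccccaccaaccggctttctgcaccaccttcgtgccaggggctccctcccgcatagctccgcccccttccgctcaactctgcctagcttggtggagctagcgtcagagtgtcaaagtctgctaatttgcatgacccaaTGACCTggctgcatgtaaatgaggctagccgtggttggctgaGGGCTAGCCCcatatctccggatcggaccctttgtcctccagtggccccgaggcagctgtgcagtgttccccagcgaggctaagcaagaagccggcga
Cdkn1a: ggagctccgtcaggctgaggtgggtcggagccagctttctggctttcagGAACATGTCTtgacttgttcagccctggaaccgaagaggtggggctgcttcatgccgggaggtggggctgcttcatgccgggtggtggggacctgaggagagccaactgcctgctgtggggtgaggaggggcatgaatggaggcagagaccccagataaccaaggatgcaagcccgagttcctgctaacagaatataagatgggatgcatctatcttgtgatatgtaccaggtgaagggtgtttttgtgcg
Foxo1: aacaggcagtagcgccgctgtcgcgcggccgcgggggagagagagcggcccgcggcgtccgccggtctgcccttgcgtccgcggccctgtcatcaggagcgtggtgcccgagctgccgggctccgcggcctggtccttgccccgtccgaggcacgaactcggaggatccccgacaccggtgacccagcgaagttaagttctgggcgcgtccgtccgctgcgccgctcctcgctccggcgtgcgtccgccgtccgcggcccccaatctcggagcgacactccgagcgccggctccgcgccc

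In the Trim63 window the reverse complement of the glucocorticoid receptor half-site, TGTTCT, lay 211 to 206 bases before the start. It was directly followed by the reverse complement of the FoxO string, TGTTTAC, at 205 to 199 bases before the start, and the matches do not overlap. Of 33469 rat promoter windows of the same length, 3.78% held the FoxO string and 20.7% the glucocorticoid receptor half-site. The Gadd45a window held TGACCT, the reverse complement of the thyroid hormone receptor half-site, at 90 to 85 bases before the start, and a p53 half-site, GGGCTAGCCC, at 48 to 39 bases before it. The thyroid hormone receptor half-site was in 16.2% of all windows and the p53 half-site in 7.98%. The Cdkn1a window held a p53 half-site, GAACATGTCT, at 201 to 192 bases before the start, and Cdkn1a is the classical p53 target. None of these strings was in the Foxo1 window, which was 75.0% G and C against a median of 51.7%. These matches describe letters only, and no binding was measured here.

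Before the genes are taken one by one, some differences between the arrays bear on all of them. Every array had the same mean intensity of 150 once 2% of values were removed at each end, but the median intensity was 38.8 to 42.0 on hyperthyroid and 43.5 to 54.9 on control arrays, and these ranges did not overlap. The ratio of 3′ to 5′ GAPDH signal, a sign of RNA integrity and labelling, was 1.2 to 1.31 in the hyperthyroid and 1.33 to 1.46 in the control group (exact permutation p = 0.0286 for each of these measures, the smallest value that 4 against 4 arrays can give). The tissue's markers were present, with Ckm, muscle creatine kinase, at 43055 ± 2635 in hyperthyroid and 56930 ± 7664 in control muscle (mean ± SD, n = 4 each). All 12 skeletal muscle markers passed the filter, and their summed intensity was 302000 to 381490 against 385180 to 426040. Slow fibre markers summed to 1394 to 8919 in hyperthyroid and 4504 to 43137 in control muscle. Which arrays were those of the females is not in the labels. On hyperthyroid 1 and control 11 the 4 probe sets of Xist, the RNA that silences an X chromosome in females, read 263 to 669 and 205 to 1856, against at most 49.97 on the other 6 arrays. Eif2s3y, a Y-linked gene, read 0.726 and 19.5 there and 355 to 639 on the other 6. Bulk RNA does not tell a change in the number of cells of a type from a change in RNA per cell.

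**Figure D1:**
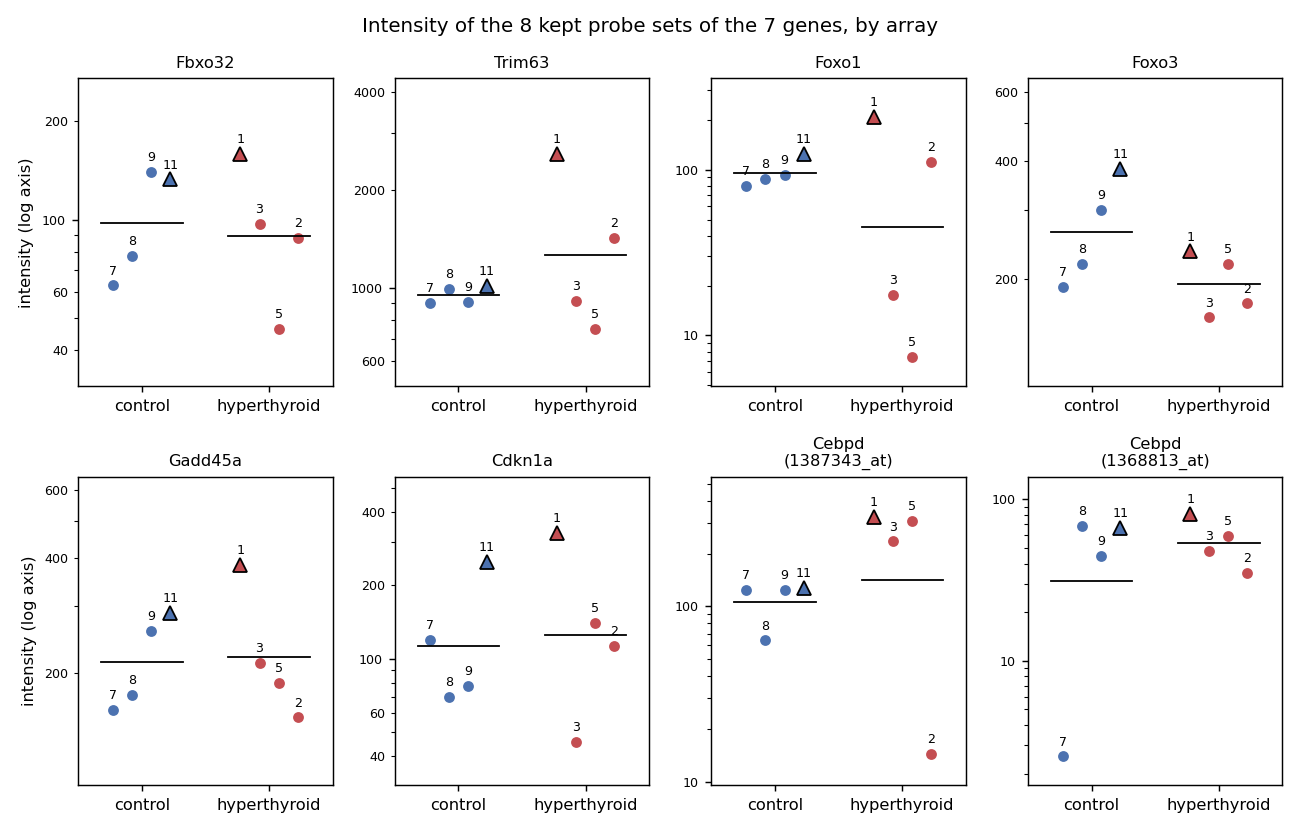
Intensity (arbitrary units, log axis) of the 8 probe sets of the 7 genes above the filter on each of 4 control arrays (blue) and 4 hyperthyroid arrays (red), labelled by replicate; bars are group means taken on the log2 scale, and triangles are hyperthyroid 1 and control 11, the arrays with high Xist. Groups overlap in every panel, and hyperthyroid 1 is the highest array in all panels except Foxo3.

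Of the ligases, Fbxo32 supplies the substrate-binding subunit of an SCF complex whose known targets include MyoD and eIF3f. Its probe set 1369188_at read 159, 97.1, 46.4 and 88.2 on hyperthyroid arrays 1, 3, 5 and 2, and 63.0, 77.8, 140 and 133 on control arrays 7, 8, 9 and 11. The highest and the lowest reading of all 8 arrays both came from hyperthyroid rats, and the 4 controls lay between them. The means were 97.7 ± 46.5 and 103 ± 38.8 (SD, n = 4 each), and the log2 fold change was -0.13 ± 0.37 (limma, 95% interval -0.93 to 0.68, adjusted p = 0.946). The interval spans a fold of 0.525 to 1.60. The sign depended on scaling and turned to 0.10 when arrays were centred on their medians, which moved the median of all probe sets to 0.21, and to 0.18 when they were scaled to the hybridization controls, which moved it to 0.30.

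Trim63 encodes MuRF1, a sarcomere-bound ligase that marks myosin heavy chain and other thick-filament proteins. It read 2587, 915, 751 and 1426 on the hyperthyroid arrays in the same order, and 904, 994, 909 and 1018 on the controls (probe set 1387804_at). Control rats were nearly alike, with a highest over lowest ratio of 1.13, while this ratio was 3.44 among hyperthyroid rats, which lay on both sides of the controls. The means were 1420 ± 830 and 957 ± 58.1 (SD, n = 4 each), and the log2 fold change was 0.40 ± 0.29 (limma, 95% interval -0.22 to 1.02, adjusted p = 0.678). With hyperthyroid 1 left out it was 0.06, and with hyperthyroid 5, the lowest array, left out it was 0.65 (limma adjusted p = 0.519). With scaling to the hybridization controls it was 0.72, of which 0.30 was the shift of all probe sets (limma adjusted p = 0.204, the smallest of any of the 7 genes under any alternative).

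Foxo1, the first of the transcription factors, is a FoxO factor known to switch fuel use to fat and to reduce muscle mass when overexpressed. Its probe set 1376779_at read 209, 17.5, 7.39 and 111 on the hyperthyroid arrays and 80.0, 88.2, 92.7 and 124 on the controls. Hyperthyroid 3 and 5 were far below every control, hyperthyroid 1 was above every control, and hyperthyroid 2 lay within their range. The readings on hyperthyroid 3 and 5 were also below the filter's intensity of about 22.4. The log2 values that follow rest in large part on these low readings. The means were 86.2 ± 94.1 and 96.3 ± 19.4 (SD, n = 4 each), and the log2 SD was 2.02 in hyperthyroid and 0.26 in control muscle. The log2 fold change was -1.02 ± 0.73 (limma, 95% interval -2.59 to 0.54, adjusted p = 0.675). It was -1.73 without hyperthyroid 1 (limma unadjusted p = 0.0187, adjusted p = 0.479) and -0.30 without hyperthyroid 5. Hyperthyroid 3 and 5 were also the arrays with the lowest Myh7, the slow myosin heavy chain, at 5.96 and 5.83 against 45.2 and 169 on the other hyperthyroid arrays and 56.0 to 5570 on the controls. Whether this has a part in the Foxo1 values was not tested.

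Foxo3, the FoxO factor best known for driving Fbxo32 and autophagy genes, was the one gene whose highest array was a control. It read 236, 160, 219 and 174 on the hyperthyroid arrays and 191, 219, 301 and 383 on the controls (probe set 1376593_at). Control 9 and 11 were above every hyperthyroid rat, and the other controls were inside the hyperthyroid range. The means were 197 ± 36.1 and 273 ± 86.6 (SD, n = 4 each), and the log2 fold change was -0.43 ± 0.24 (limma, 95% interval -0.94 to 0.08, unadjusted p = 0.0940, adjusted p = 0.592). Its sign was negative with each array left out in turn, from -0.58 without control 7 to -0.25 without control 11. It was -0.21 with median centring and -0.11 with scaling to the hybridization controls (limma adjusted p = 0.712 and 0.852).

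Gadd45a encodes a growth-arrest protein induced in denervated muscle through ATF4. It read 383, 213, 189 and 153 on the hyperthyroid arrays and 161, 176, 258 and 287 on the controls (probe set 1368947_at). Hyperthyroid 1 was the highest array and hyperthyroid 2 the lowest, and control 11 was second. The means were 235 ± 102 and 221 ± 61.6 (SD, n = 4 each), and the log2 fold change of 0.04 ± 0.28 lay close to 0 (limma, 95% interval -0.57 to 0.65, adjusted p = 0.975). It was 0.26 with median centring and 0.36 with scaling to the hybridization controls, close to the shift of all probe sets.

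Cdkn1a encodes p21, an inhibitor of cyclin-dependent kinases that holds muscle precursors out of the cell cycle. Its probe set 1388674_at read 327, 45.7, 140 and 113 on the hyperthyroid arrays and 120, 69.97, 77.5 and 249 on the controls. The 2 arrays with high Xist gave the 2 highest values, and the lowest was hyperthyroid 3. The means were 156 ± 120 and 129 ± 82.7 (SD, n = 4 each), and the log2 fold change was 0.14 ± 0.50 (limma, 95% interval -0.95 to 1.22, adjusted p = 0.956). Leaving out single arrays moved it from -0.32 (without hyperthyroid 1) to 0.60 (without hyperthyroid 3), and the same scalings gave 0.36 and 0.45.

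Cebpd encodes a C/EBP factor induced by glucocorticoids and cytokines, and it was the one gene with more than 1 probe set above the filter. Probe set 1387343_at read 323, 235, 308 and 14.4 on the hyperthyroid arrays and 124, 64.0, 124 and 127 on the controls. Hyperthyroid 1, 3 and 5 were above every control, and hyperthyroid 2 was below every control. The log2 fold change was 0.40 ± 0.72 (limma, adjusted p = 0.895) with all arrays, and 1.40 without hyperthyroid 2 (limma unadjusted p = 0.000296, adjusted p = 0.237). The second, 1368813_at, read 81.2, 47.7, 59.7 and 35.2 against 2.55, 68.8, 44.6 and 66.4, with control 7 far below the rest and the other arrays overlapping. Its log2 fold change was 0.72 ± 0.70 (limma, adjusted p = 0.772), and -0.13 without control 7. The order of the arrays thus differed between the probe sets, and on 1368813_at hyperthyroid 3 and 5 did not stand above the controls.

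The other 6 probe sets lay below the filter, an intensity of about 22.4, and none had groups that did not overlap. In a limma fit without the filter, those of Foxo1 gave log2 fold changes of 0.33 ± 0.80 and -0.20 ± 0.67, and those of Foxo3 gave -0.61 ± 0.65 and 0.66 ± 0.55. The values were -0.92 ± 0.83 for Cdkn1a and -0.83 ± 0.80 for Cebpd, and the adjusted p-values of the 6 ran from 0.790 to 0.964. For Foxo1 and Foxo3, 1 dim probe set each had the sign of the bright one and 1 the opposite sign. On none of the 6 was hyperthyroid 1 the highest array, and on Foxo1 probe set 1377502_at it was the lowest.

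Over the 8 kept probe sets, 5 differences were above 0 and 3 below, with a median of 0.09 against -0.01 for all probe sets tested. None passed an adjusted p of 0.05 in limma, where 6 of 18625 probe sets, or 0.0322%, did. None passed an unadjusted p of 0.05, against 9.68% of all probe sets, and none had groups that did not overlap, against 6.15%. Exact permutation of the group labels gave unadjusted p from 0.171 (Foxo3) to 0.943 (Gadd45a), and 0.943 for each after adjustment over the 8. The intervals are wide for most of these genes, so a p above the threshold does not show equal levels.

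**Figure D2:**
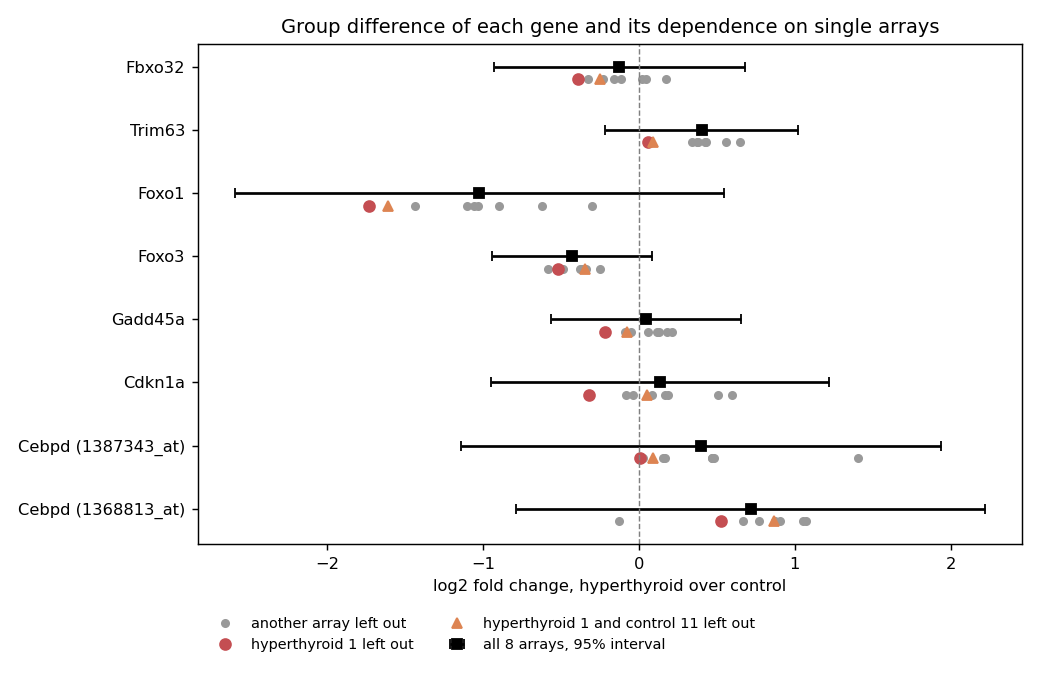
Log2 fold change of hyperthyroid over control for the 8 kept probe sets, with all 8 arrays (black squares, 95% limma interval) and with arrays left out (grey: 1 other array; red: hyperthyroid 1; orange triangles: hyperthyroid 1 and control 11). Every interval crosses 0. Leaving out hyperthyroid 1 moves each of the 8 values down, which follows from its being the highest hyperthyroid array on all 8. The move is least for Foxo3, from -0.43 to -0.52.

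The shared feature of the kept probe sets of these genes was the array on which they were high. Hyperthyroid 1 was the highest of all 8 arrays on 7 of 8 kept probe sets, while 11.9% of all kept probe sets were highest there, and it was the highest hyperthyroid array on 8 of 8, against 26.7% of all kept probe sets. Against the median of the other 7 arrays it was 2.84-fold higher for Cdkn1a, 2.82-fold for Trim63, 2.56-fold and 1.65-fold for the probe sets of Cebpd, 2.31-fold for Foxo1, 2.01-fold for Gadd45a, 1.77-fold for Fbxo32 and 1.08-fold for Foxo3. These deviations lay at percentiles 93.4 to 99.5 of all kept probe sets on that array, except Foxo3, at percentile 61.2. Control 11 was the highest control on 6 of 8 probe sets, against 30.3% of all kept probe sets, and it was the highest of all 8 arrays on 20.8% of them, more than any other array. For 6 of 8 the highest hyperthyroid array was replicate 1 and the highest control was replicate 11, against 7.88% of all kept probe sets.

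Hyperthyroid 1 did not stand apart in its GAPDH ratio (1.29), its actin 3′ to 5′ ratio (1.71, with 1.43 to 2.16 over all arrays) or its median intensity (39.8). Control 11 had the highest median intensity (54.9, with 43.5 to 46.7 on the other controls), the highest actin ratio (2.16) and the lowest of limma's array weights (0.584, with 0.718 to 1.79 on the other 7). Summed adipocyte markers were highest on hyperthyroid 1, at 2634, and next highest on control 11, at 2506. The other 6 arrays gave 1209 to 1951. Most of that sum was Fabp4, a lipid-binding protein that endothelium also makes (2502 and 2128, with 1092 to 1601 on the other 6), while Adipoq, the adipocyte hormone adiponectin, read 37.8 and 46.4 there and 2.66 to 144 on the other 6. The 5 endothelial markers above the filter also summed highest on hyperthyroid 1, to 1128, with 985 on control 11 and 710 to 1001 on the other 6. These markers did not go together. Kdr and Pecam1 were highest on hyperthyroid 1 (462 and 187), but Tie1 was lowest there (72.5). Vwf was highest on control 7 and Tek on control 9. On control 11 Tie1 was highest (157) and Tek lowest (231). Of the 6 listed adipocyte markers 4 passed the filter, and Lep and Cidec did not. Immune markers summed to 358 on hyperthyroid 1 and 575 on control 11, with Ptprc and Itgam below the filter. The part of sex, of adipocyte or endothelial RNA or of anything else particular to these rats was not tested, and with 1 such rat in each group they cannot be told apart.

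Without hyperthyroid 1, 5 of the 8 differences were below 0 and 3 above. They were -0.39 for Fbxo32, 0.06 for Trim63, -1.73 for Foxo1, -0.52 for Foxo3, -0.22 for Gadd45a, -0.32 for Cdkn1a and 0.0042 and 0.53 for Cebpd, none past an adjusted p of 0.05 in limma. With hyperthyroid 1 and control 11 both left out, an alternative chosen after seeing the data, Trim63 stood at 0.09, Fbxo32 at -0.25, Foxo1 at -1.61 (limma unadjusted p = 0.0452, adjusted p = 0.618) and Gadd45a at -0.08.

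**Figure D3:**
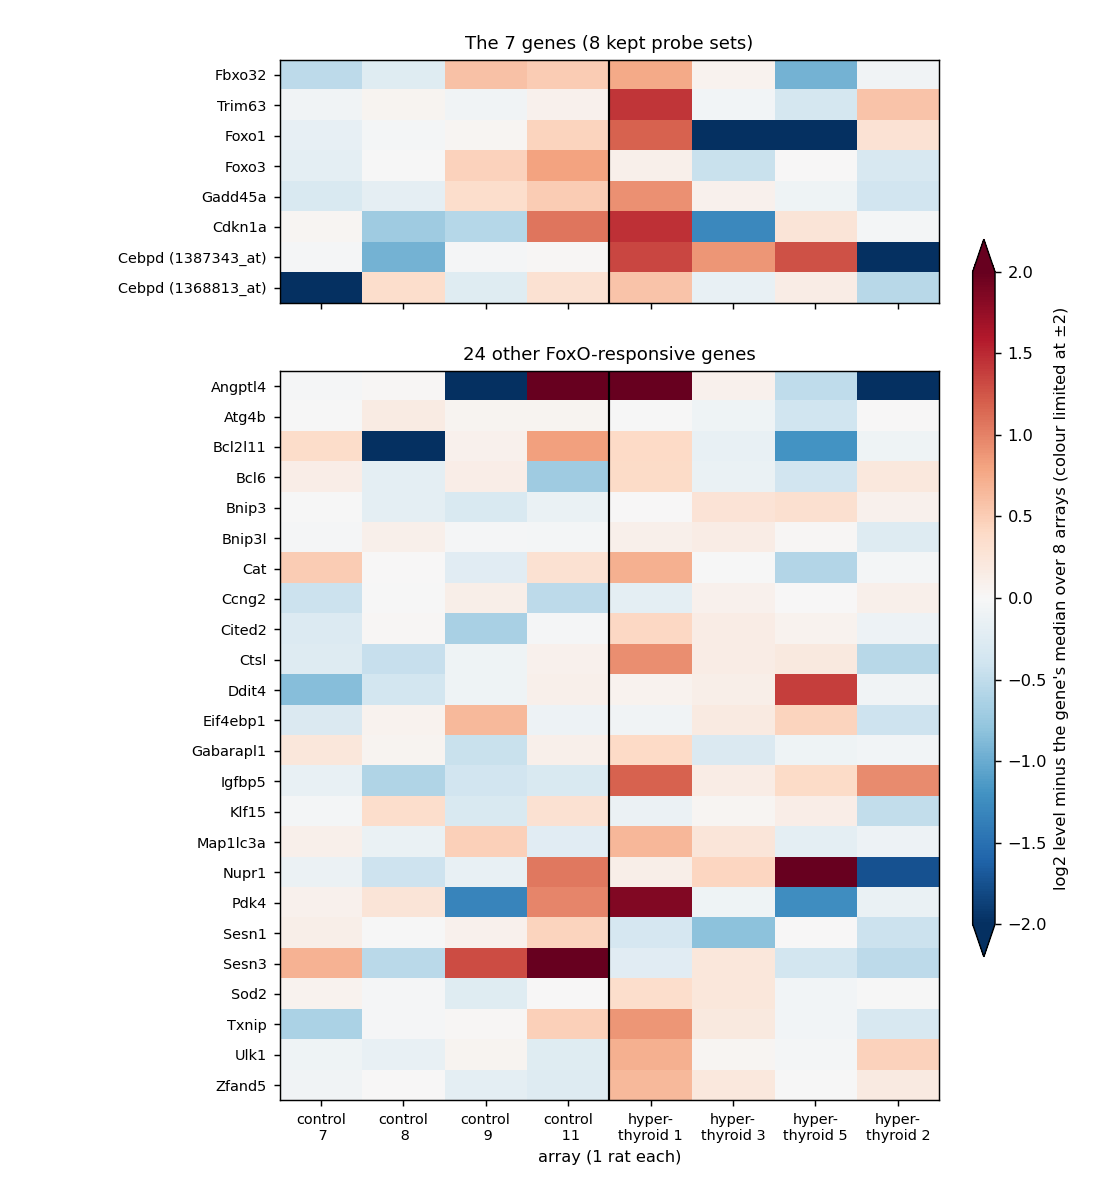
Log2 level of the 8 kept probe sets (top) and of 24 other FoxO-responsive genes (bottom) on each array, minus the median of that gene over the 8 arrays, with colour limited at ±2. The hyperthyroid 1 column is red for nearly all of the 7 genes, and for 13 of the 24 others it is the highest array. The control 11 column is red for Foxo3, Cdkn1a, Sesn3, Nupr1, Pdk4 and Angptl4, among others.

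The 7 genes were compared in pairs over the 8 arrays, with the highest probe set per gene, which gave 21 correlations, 18 of them above 0. All come from the same 8 arrays and share their scaling, and none passed an adjusted p of 0.05 by exact permutation. The closest pair was Fbxo32 and Gadd45a, with Pearson r 0.80 (exact permutation p = 0.0192, adjusted p = 0.347) and Spearman rho 0.76 (exact permutation p = 0.0368, adjusted p = 0.257). It was 0.89 without hyperthyroid 1 and 5, the arrays farthest from the median of Fbxo32. For Trim63 and Foxo1, r was 0.67 (exact permutation p = 0.0712, adjusted p = 0.347) and rho 0.86 (exact permutation p = 0.0107, adjusted p = 0.225), and r was 0.83 without hyperthyroid 1 and 2. Fbxo32 and Foxo1 gave r 0.69 (exact permutation p = 0.0600, adjusted p = 0.347) and rho 0.76 (exact permutation p = 0.0368, adjusted p = 0.257), but r fell to 0.13 without hyperthyroid 1 and 5, so it rested on those rats. The ligases themselves, Fbxo32 and Trim63, gave r 0.60 (exact permutation p = 0.110, adjusted p = 0.347) and rho 0.64 (exact permutation p = 0.0962, adjusted p = 0.337), and r was -0.07 without hyperthyroid 1 and 5.

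The genes whose log2 levels most resembled each of the 7 over the 8 arrays were found among all 10200 genes tested, by Pearson r and with no test. Trim63 was closest to Klf10 (r 0.97), a TGF-beta-inducible zinc finger factor, then Ddx3x and Ginm1 (0.95 each). Fbxo32 was closest to Ccdc8 (0.97), Kcnn1 (0.96) and Polr1h (0.95), and Gadd45a to Rnf126 (0.96), Psmd8 (0.96), a proteasome subunit, and Prpf4 (0.94). Foxo1 was closest to Cog7 and Cpsf1 (0.97 each) and F12 (0.95), and Foxo3 to Iqcb1 and Tnfaip2 (0.95 each) and Slc39a3 (0.94). Cebpd was closest to Apbb1ip (0.97), Slc23a2 (0.96) and Tradd (0.93). Cdkn1a was closest to Ywhaz (0.99), a 14-3-3 protein of the kind that holds phosphorylated FoxO in the cytoplasm, then Asah1 (0.95) and Xist (0.94).

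The pathway around the 7 genes was examined in 5 lists, 1 probe set per gene. None of their genes passed an adjusted p of 0.05 in limma, where 7 of 10200 genes, or 0.0686%, did. At an unadjusted p of 0.05, 5.38% of all genes were higher and 5.21% lower in hyperthyroid muscle, and 6.55% had groups that did not overlap. The median log2 fold change of all genes was -0.00029. The shifts of 0.21 and 0.30 that median centring and hybridization control scaling put on all probe sets exceed the median of every list below.

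Of 19 other muscle ubiquitin ligases and their partners, 2 were higher and 1 lower at the unadjusted threshold, 3 did not overlap, and the median was 0.08. Ube2d1, an E2 enzyme that passes ubiquitin to ligases such as MuRF1, read 1497, 1491, 2089 and 1897 on the hyperthyroid arrays and 771, 977, 1099 and 664 on the controls, so every hyperthyroid rat was above every control. The means were 1744 ± 299 and 878 ± 197 (SD, n = 4 each), and the log2 fold change was 1.00 ± 0.18 (limma adjusted p over genes = 0.0801), while its other probe set gave 0.29 ± 0.19. The higher probe set passed the adjusted threshold with median centring, hybridization control scaling, no filter or robust variance (limma adjusted p from 0.0126 to 0.0433). Asb2, the substrate-binding subunit of a muscle ligase that limits muscle mass, read 4332, 4750, 4267 and 4343 against 5901, 7123, 6032 and 7531, lower in every hyperthyroid rat than in any control (log2 fold change -0.58 ± 0.12, limma adjusted p = 0.135). Skp1, the SCF adaptor that Fbxo32 binds, differed by 0.28 ± 0.12 (limma adjusted p = 0.440) with overlapping groups. Fbxo30, a ligase of denervated muscle, was named after its values were seen because its groups did not overlap (-0.49 ± 0.25, limma adjusted p = 0.506), while its other probe set gave 0.23 ± 0.56. Its groups were barely apart, with 87.3 on the highest hyperthyroid and 87.5 on the lowest control array.

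Of 20 FoxO family members and inputs, 3 were higher, none lower, and the same 3 did not overlap. All are kinases of the arm that restrains FoxO. Akt1 read 489 ± 96.1 in hyperthyroid and 325 ± 49.95 in control muscle (SD, n = 4 each), and the log2 fold change was 0.58 ± 0.18 (limma adjusted p = 0.296). Akt2, the isoform of insulin-responsive muscle, read 521 ± 113 and 345 ± 61.3 (SD, n = 4 each), also 0.58 ± 0.19 (limma adjusted p = 0.311). Its lowest hyperthyroid array (423) was barely above its highest control array (420). Pdpk1, which phosphorylates Akt, differed by 0.43 ± 0.15 (limma adjusted p = 0.336), and its other probe set gave 0.06 ± 0.26. Other probe sets of the Akt genes did not give 1 picture, at 0.39 and -0.44 for Akt1 and 0.18, 0.35 and -1.37 for Akt2. The -1.37 ± 0.57 of Akt2 was lower at the unadjusted threshold (limma unadjusted p = 0.0298, adjusted p = 0.470). So was a probe set of Insr, the insulin receptor gene, at -1.55 ± 0.62 (limma unadjusted p = 0.0261, adjusted p = 0.460). The Insr probe set used in the list gave -0.45 ± 0.38. The median of the list was 0.04.

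Of 24 other FoxO-responsive genes, 3 were higher and 1 lower at the unadjusted threshold, 2 did not overlap, and the median was 0.11. Igfbp5, a binding protein for insulin-like growth factors, read 1884, 921, 1082 and 1609 on the hyperthyroid and 753, 548, 638 and 673 on the control arrays, with no overlap. Its log2 fold change was 1.02 ± 0.21 (limma adjusted p = 0.135), and its other probe sets gave 0.20, 0.71 and 1.05. It passed with median centring and with hybridization control scaling (limma adjusted p = 0.0400 and 0.0141). The mitophagy gene Bnip3 differed by 0.34 ± 0.12 and Zfand5, a zinc finger protein that stimulates the proteasome, by 0.39 ± 0.15, while Sesn1, a stress-responsive restraint on mTORC1, stood at -0.55 ± 0.20 (limma adjusted p of 0.351, 0.382 and 0.362). Other probe sets gave 0.29 and 0.46 for Zfand5 and -0.24 for Sesn1.

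The array pattern of the 7 genes was also seen in this list. Hyperthyroid 1 was the highest array for 13 of these 24 genes, 54.2%, against 13.3% of all genes, and for 5 of 24 the highest array of each group was hyperthyroid 1 and control 11, against 8.41% of all genes. Genes named here were chosen after their values were seen. Pdk4, which holds back glucose oxidation and is a textbook FoxO1 target, read 19514 on hyperthyroid 1 against 2294 to 5131 on the other hyperthyroid arrays, and 10693 on control 11 against 2167 to 6463 on the other controls, with a group difference of 0.10 ± 0.56. Angptl4, a lipoprotein lipase inhibitor of fasting, read 938 on hyperthyroid 1 and 487 on control 11, against 3.63 to 70.5 on the other 6. In the other 4 lists hyperthyroid 1 was highest for 4 of 19, 7 of 20, 5 of 15 and 6 of 18 genes, or 21.1%, 35%, 33.3% and 33.3%. In the same order, the highest array of each group was hyperthyroid 1 and control 11 for 1, 2, 3 and 4 genes. The pattern on both arrays was thus not particular to the FoxO-responsive list.

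Of 15 Gadd45 and cell-cycle arrest genes, 1 was higher, none lower, 2 did not overlap, and the median was -0.05. The one was Cdkn1b (p27), a relative of Cdkn1a, at 670 ± 97.5 in hyperthyroid and 435 ± 25.9 in control muscle (SD, n = 4 each), and the log2 fold change was 0.61 ± 0.15 with no overlap and 0.35 on its other probe set (limma adjusted p = 0.208, and 0.0369 with hybridization control scaling). The other without overlap was Cdkn2c, an inhibitor of cyclin D kinases named after its values were seen (0.75 ± 0.42, limma adjusted p = 0.560). Its groups were barely apart, with 37.0 on the lowest hyperthyroid and 36.8 on the highest control array. Gadd45g, also named after its values were seen, read 400 to 989 in hyperthyroid and 203 to 739 in control muscle, highest on hyperthyroid 1 and control 11. Of 18 C/EBP and glucocorticoid-responsive genes, 1 was higher, none lower, none without overlap, and the median was 0.12. It was Smad3, a transducer of myostatin and TGF-beta signals, at 0.83 ± 0.25 with overlapping groups (limma adjusted p = 0.273, and 0.0464 with hybridization control scaling). Cebpb, the partner of Cebpd, read 1339 on hyperthyroid 1 and 700 on control 11, against 290 to 499 on the other 6, a group difference of -0.04 ± 0.37. Cebpb too was named after its values were seen.

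**Figure D4:**
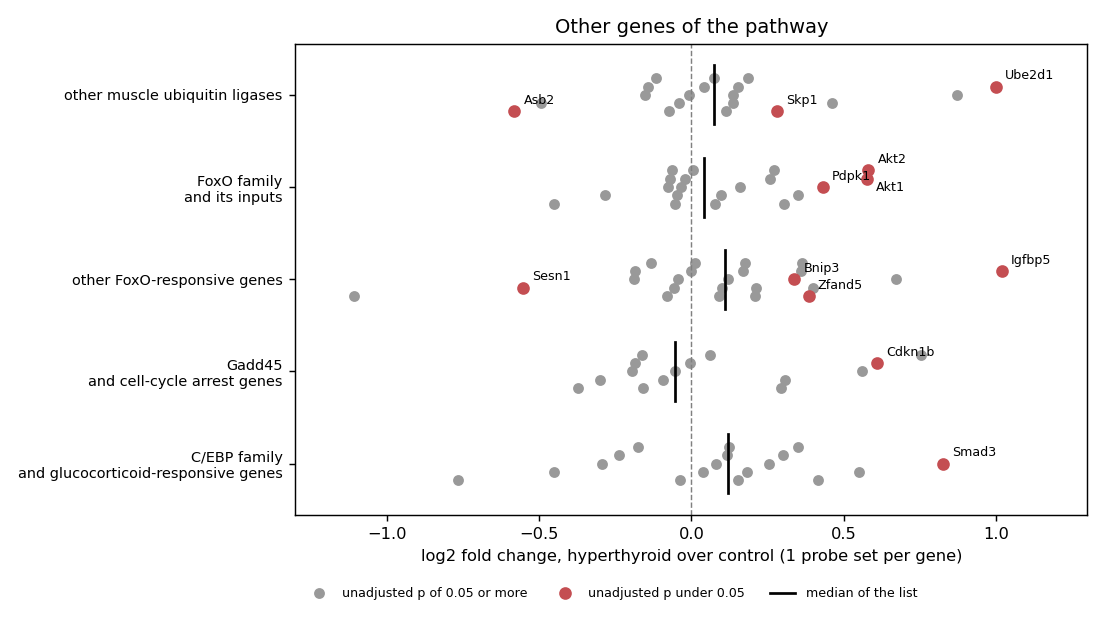
Log2 fold change of hyperthyroid over control for each gene of the 5 pathway lists, 1 probe set per gene, with list medians as black bars; red points have an unadjusted limma p under 0.05. List medians lie between -0.05 and 0.12, and Ube2d1 and Igfbp5 stand farthest to the right.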

How the data were processed

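Tibialis anterior RNA was measured on 8 arrays, 1 per rat, with 4 per group and no replicate number shared between the groups. The deposited table holds linear intensities, made with GCOS per the submitters' processing notes. For its version, settings and detection calls, the sources used here give nothing. Each array had been scaled to one trimmed mean, so total RNA differences are removed. The 57 control probe sets were left out.

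Values were analysed as log2(intensity + 3.41), with no further normalization, so fold changes of low transcripts are understated. Probe sets with a mean log2 value above the 40th percentile (4.69) were kept. They were tested with limma 3.58.1 in R 4.3.3 (lmFit, eBayes with trend, two-sided, Benjamini-Hochberg adjusted over 18625 probe sets, or over 10200 genes by their highest probe set). The procedure was tested on simulated data. Single values also had two-sided exact permutation tests over 70 assignments. The number of arrays limits the precision. Alternatives changed scaling, pseudocount, filter, variance model and arrays.

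All probe sets of the 7 genes are given. Up to 4 genes per list with unadjusted p under 0.05 are named, and the 3 most similar genes. Pathway genes named outside these rules were chosen after their values were seen. The members and lists were chosen with earlier results of these data known. The motifs other than the FoxO string were added later. Symbols come from the platform annotation, in which 436 probe sets have several symbols and 9780 none, and these were not named. Samples of extraocular muscle named in the design text were not analysed here.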

Additional observations from a re-analysis of the deposited data

Results flagged for a closer look

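In 28 groups of 4 arrays (14 probe sets in each condition), 4 readings lay far from the other 3 of their group, with a gap to the nearest of them, over the whole range on the log2 scale, above Dixon's 95% critical value. Chance gives this in about 5% of groups. For Cebpd probe set 1387343_at, hyperthyroid 2 read 14.4 against 235 to 323 on the other hyperthyroid arrays (gap over range 0.892). On the same probe set control 8 read 64.0 against 124 to 127 on the other controls (0.961). For Cebpd probe set 1368813_at, control 7 read 2.55 against 44.6 to 68.8 (0.837). For Foxo1 probe set 1377502_at, which is below the filter, hyperthyroid 5 read 27.7 against 2.49 to 4.20 (0.847).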

How the results depend on the processing

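All 166 values of the 8 probe sets under 21 alternatives stayed short of an adjusted p of 0.05 in limma, and 6 had an unadjusted p under 0.05. With all arrays in, the sign turned for Fbxo32 alone (0.10 with median centring, 0.18 with hybridization control scaling). With a pair of arrays left out it turned for Cebpd 1368813_at (-0.0483 without both control 7 and 11) and Gadd45a (-0.0798 without both hyperthyroid 1 and control 11). With 1 array left out, values ran from -0.39 to 0.17 for Fbxo32, -0.32 to 0.60 for Cdkn1a, -0.22 to 0.21 for Gadd45a and -0.13 to 1.07 for Cebpd 1368813_at, each crossing 0, and the cause was not tested. Signs of Trim63, Foxo1, Foxo3 and Cebpd 1387343_at were kept. The count of called probe sets, 6, was 19 with median centring, 118 with hybridization control scaling, 16 with no filter, 0 with no variance trend, 22 with robust variance, 10 with array weights, 1 without control 7 and 11, 2 without hyperthyroid 1 and control 11, and 0 to 5 with 1 array left out. The count of genes, 7, was 12, 110, 11, 0 and 14 under the first 5 of these, 3 without control 7 and 11, 1 with the mean of a gene's probe sets, and 0 to 7 with 1 array left out. The 7 called genes were all higher in hyperthyroid muscle, while 4 with robust variance and 1 each with no filter, with array weights and without hyperthyroid 1 were lower. No gene was called without hyperthyroid 3, and no probe set without hyperthyroid 3 or without control 7. Pathway-list genes called numbered 0, then 2 with median centring (Igfbp5, Ube2d1), 4 with hybridization control scaling (also Cdkn1b, Smad3), 1 with no filter and 1 with robust variance (Ube2d1). Genes of the 5 lists at an unadjusted p under 0.05 numbered 3 (other ligases), 3 (FoxO and inputs), 4 (FoxO-responsive), 1 (Gadd45 and arrest) and 1 (C/EBP and glucocorticoid), and over the alternatives ran from 2 to 7, 1 to 7, 2 to 9, 1 to 4 and 0 to 9. No paired analysis was possible because the groups compared share no replicate numbers. The low signal of the probe sets below the filter limits what Foxo1 and Foxo3 can show beyond their bright probe set.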
